A study of Arabidopsis thaliana with 6 samples.

Results

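Both libraries of the triple mutant ddm1 rdr6 pol V, replicates Rep B and Rep A, were set side by side to describe what the deeper one adds to the catalogue of transposable element (TE) transcripts. A transcript model is a set of exons built from a cluster of long reads. The members were all deposited TE transcript models of both libraries, 432 in Rep B and 91 in Rep A, which together make 523 of the 829 models of the series. Models that shared at least 1 bp of exon on the same strand were joined into loci. The joined models formed 334 loci, where all 6 libraries of the series formed 344.

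Rep B and Rep A share the genotype, with ddm1, rdr6 and pol V all mutated in the Columbia ecotype of Arabidopsis thaliana. Both came from immature flower buds of inflorescence stages 1 to 12, from plants kept at 22 °C with 16 h of light a day, and from 50 ng of poly(A) RNA. Rep B was sequenced alone in round 2 after 13 PCR cycles. Rep A was sequenced in round 1 after 14 cycles, in a pool with 4 libraries of 1 sample each: ddm1 pol V, ddm1 rdr6, ddm1 and wt. The labels give no plant age and no allele names, and do not say whether Rep B and Rep A came from separate plants. Each side is 1 library, so no test was made, and depth, round and PCR cycles cannot be told apart. The mutated genes DDM1, RDR6 and NRPE1 had 0 models here, since the models cover TEs only, and neither the genotype nor the tissue could be checked through them.

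TEs are mobile DNA elements that plants keep silent with DNA methylation, compact chromatin and small RNAs. DDM1 is a chromatin remodeler needed for methylation over heterochromatic TEs, RDR6 copies TE transcripts to give double-stranded precursors of small RNAs, and Pol V makes the scaffold transcripts of RNA-directed DNA methylation. Once silencing is lost, many TEs are transcribed by RNA polymerase II, spliced and polyadenylated like genes, and long-read cDNA sequencing shows which exons, starts and ends occur on the same molecule. PCR-cDNA reads are primed at the poly(A) tail, so a read that stops early lacks the 5′ part of its transcript.

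The label of Rep B as the deeper library fits the TE reads. The number that ends each model's name was taken as the reads in its cluster, which the files do not state. These summed to 17106 in Rep B and 2317 in Rep A, 7.38 times as many. Library totals are unknown. No model had under 10 reads, so the absence of a model does not mean the absence of a transcript. Models numbered 432 in Rep B (exact Poisson 95% interval 392 to 475) and 91 in Rep A (73.3 to 112), a ratio of 4.75. The reads had no molecular identifiers and are not independent molecules, so all intervals cover counting error only. The most abundant model held 670 reads in Rep B and 121 in Rep A, and the median model held 18 reads in Rep B and 16 in Rep A. The models were paired with 370 TE identifiers in Rep B and 89 in Rep A. All 89 of Rep A recurred in Rep B. Loci are called here by the TE identifier with most reads, and a number added after a point marks a further locus of the same element. Positions are those of the deposited models on TAIR10, counted from 1, and printed sequences are read 5′ to 3′ on the transcript strand from the RefSeq assembly TAIR10.1.

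Every locus of Rep A was found again in Rep B, and Rep B added 254 loci to the 80 that both libraries held. Thus 76.0% of the 334 loci of Rep B lacked a model in Rep A (Clopper-Pearson 95% interval 71.1 to 80.5%). The added loci had few reads each in Rep B. A locus is in this class because it had no model in Rep A, where each model has at least 10 reads. Low reads in Rep B thus follow in part from how the class was chosen. The added loci held 68.5% of the models of Rep B but 35.7% of its reads. In Rep B, a locus without a model in Rep A had a median of 17 reads, with quartiles of 12.25 and 28 and a range of 10 to 116. A locus of both libraries had a median of 68.5 reads in Rep B, with quartiles of 35.75 and 153.25 and a range of 10 to 842. The ranges overlap, but 142 of 254 loci of Rep B alone (55.9%) had under 20 reads, against 10 of 80 shared loci (12.5%).

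The share of Rep B loci also found in Rep A was higher in each higher class of Rep B reads. It was 10 of 152 loci with 10 to 19 reads (6.58%, 3.20 to 11.8%) and 20 of 111 with 20 to 49 reads (18.0%, 11.4 to 26.4%). It was 23 of 41 loci with 50 to 99 reads (56.1%, 39.7 to 71.5%) and 27 of 30 with 100 or more (90.0%, 73.5 to 97.9%). Loci of 1 library are not independent samples, so the intervals describe these libraries.

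**Figure D1:**
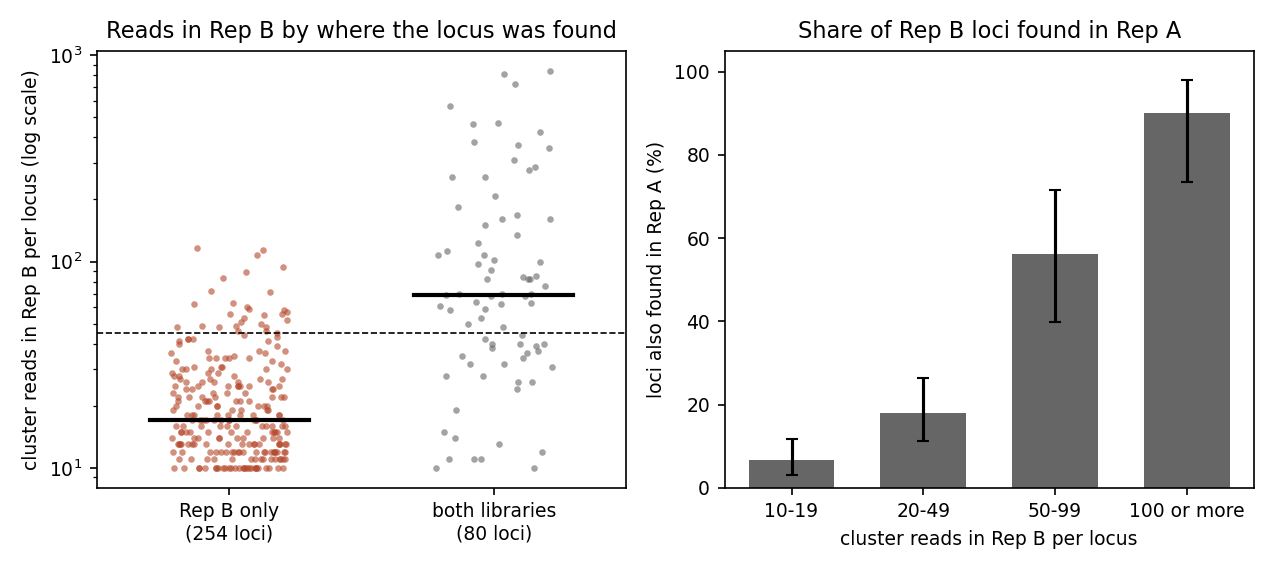
Left, cluster reads in Rep B (log scale) of each of the 254 loci found in Rep B only and of the 80 found in both libraries, with the median as a bar; the dashed line marks 45.0 reads, 10 reads times the median ratio at shared loci. Right, the share of Rep B loci also found in Rep A by reads in Rep B, with Clopper-Pearson 95% intervals, which runs from 6.58% to 90.0%.

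At the 80 shared loci, cluster reads in Rep B were a median of 4.50 times those in Rep A, with quartiles of 2.52 and 6.43. Reads in Rep A ran from 10 to 137 with a median of 16.5. A locus had to reach 10 reads in both libraries to enter this ratio. With that ratio, 10 reads in Rep A correspond to 45.0 reads in Rep B. Of the 254 loci of Rep B alone, 226 (89.0%) had fewer reads than that, and 28 had more. The minimum holds for each model, and 17 of the 28 had a single model over that level. Of the 28 loci, 20 (71.4%) had a model in another library of round 1. Of the 80 shared loci, 29 also had fewer than 45.0 reads in Rep B, so this level is no sharp limit.

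The 3 loci of Rep B alone with most reads show what Rep A did not list. AT3TE54780 (Chr3:13440979-13441878, + strand, no annotated gene) had 116 reads in Rep B in models of 106 and 10 reads, both unspliced, and also had a model in ddm1 pol V. AT5TE45025 (Chr5:12730305-12732244, + strand, on the long non-coding RNA gene AT5G05105) had 114 reads in models of 47, 43 and 24 reads, with up to 4 exons, and had no model in any other library. AT2TE24735 (Chr2:6074164-6075478, + strand, on the pseudogene AT2G14330) had 108 reads in a pair of 4-exon models with 91 and 17 reads. AT1TE52610 (Chr1:15962066-15964522, + strand, on the pseudogene AT1G42520) held the most models of any locus of Rep B alone, with 36, 18, 13, 12 and 10 reads, and also had no model in another library. The next 6 by reads, AT3TE60430, AT2TE16710, AT4TE15420, AT3TE61525, AT2TE23965 and AT4TE25065, had 94, 83, 72, 71, 63 and 62 reads in Rep B, in that order, and each had a model in at least 1 library of round 1.

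In position and annotation the added loci were close to the shared ones. Pericentromeric loci, those in 500 kb bins with under 40% of bases in protein-coding genes, were 195 of 254 loci of Rep B alone (76.8%) and 61 of 80 shared loci (76.2%). These bins make up 21.4% of the nuclear genome. Annotated pseudogenes, which is how many Arabidopsis TE genes are listed, held 60.6% of loci of Rep B alone and 57.5% of shared loci. Protein-coding genes held 5.51% and 6.25%, in the same order, and no gene was annotated at 33.1% and 36.2%. Another round 1 library had a model at 68 of the 254 loci of Rep B alone (26.8%), against 68 of the 80 shared loci (85.0%). That library was ddm1 pol V at 56 loci of Rep B alone and ddm1 rdr6 at 32, against 64 and 57 shared loci.

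By protein match, CACTA was the most frequent type among the added loci, largely through 1 sequence group. CACTA elements are DNA transposons that move by cutting and pasting. A translated search against 135 reference proteins named for a TE type matched a CACTA protein at 26 loci of Rep B alone (10.2%) and 3 shared loci (3.75%). MuDR, another cut-and-paste type, was matched at 9 loci of Rep B alone (3.54%) and 3 shared loci (3.75%). Copia, a type of retrotransposon that is copied through RNA, was matched at 8 loci of Rep B alone (3.15%) and 2 shared loci (2.5%). No match was found at most loci of either kind, since 47 of 254 loci of Rep B alone (18.5%) and 9 of 80 shared loci (11.2%) matched any such protein.

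Groups of similar sequence, joined at 80% identity over 80% of the shorter model, often held a shared locus and several added ones. Of the 254 added loci, 87 (34.3%) fell in a group with a shared locus and 50 (19.7%) in 18 groups with none. The largest group, led by AT1TE42225, had 21 loci, of which 20 were in Rep B only, 20 had a spliced model and 18 matched a CACTA protein. Its loci summed to 412 reads in Rep B and 36 in Rep A, all 36 at the lead locus. The 10 loci of the group led by AT5TE42190 had 182 reads in Rep B and 0 in Rep A, all unspliced, with 10 to 30 reads a locus. The group led by AT1TE44450 was the reverse in membership, with 7 loci in Rep B only and 10 in both, and held 1481 reads in Rep B and 260 in Rep A. Long reads that fit several copies can be placed at the wrong one. Among the loci studied here, another of at least 98% identity existed for 34 loci of Rep B alone (13.4%) and 18 shared loci (22.5%). Copies in the genome without a model were not searched, so these shares may be too low. The part of near-identical copies in these counts was not tested.

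The longest spliced chains among the added loci came from few reads. AT3TE70590 (Chr3:17402735-17407968, + strand, on the pseudogene AT3G47260, outside the pericentromere) had 1 model of 13 reads in Rep B with 12 introns, a spliced length of 3011 nt and an open reading frame of 857 codons. Of the named loci in this class, AT4TE17660 had 10 introns from 11 reads, AT2TE13145 had 9 from 14 reads and AT2TE26680 had 7 from 10 reads. AT5TE51685, a CACTA match, had 6 introns, 51 reads and a frame of 433 codons.

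Isoforms, meaning models of 1 locus, were more numerous in Rep B at 27 of the 80 shared loci, equal at 52 and fewer at 1. The mean was 1.70 models a locus in Rep B and 1.14 in Rep A, and the highest was 6 in Rep B and 3 in Rep A. At least 2 models were present at 28 shared loci in Rep B (35%) and at 10 in Rep A (12.5%). Counting distinct intron chains in place of models, the mean was 1.475 in Rep B and 1.0625 in Rep A, with more chains in Rep B at 21 loci and fewer at 0. Since each model needs 10 reads, a locus of 20 reads can show at most 2 models.

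Within classes of reads per locus the mean number of isoforms was higher in Rep B in each class of 20 reads or more. Below 20 reads the 10-read minimum allows only 1 model a locus, so both libraries are equal there by definition. Loci of 20 to 49 reads had a mean of 1.22 models in Rep B (111 loci) and 1.17 in Rep A (18 loci). Loci of 50 to 99 reads had 1.68 in Rep B (41 loci) and 1.43 in Rep A (14 loci). Loci of 100 reads or more had 2.53 in Rep B (30 loci) and 2.00 in Rep A, which held only 2 such loci. This last class reaches 842 reads in Rep B and 137 in Rep A.

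AT3TE53850 (Chr3:13168259-13170662, + strand, on the pseudogene AT3G32195) had the most isoforms. Its 6 models in Rep B had 576, 45, 38, 34, 17 and 15 reads, and its 2 models in Rep A had 83 and 10 reads. Both models of Rep A recurred in Rep B with the same introns, at 576 and 38 reads. The main transcript joined 4 exons. Other models of Rep B had a donor site moved 13 nt downstream, an exon more, or an intron cut out of the last exon. Those of 38 and 15 reads spliced to an earlier acceptor for the last exon, and the one of 38 reads also ended earlier. The donor moved by 13 nt is shown because both sites open with the same dinucleotide, with exon bases in capitals and intron bases in lower case, 20 of each.
AT3TE53850 main donor, intron Chr3:13168368-13168463: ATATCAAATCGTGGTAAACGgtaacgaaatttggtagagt
AT3TE53850 donor of Rep B only, intron Chr3:13168381-13168463: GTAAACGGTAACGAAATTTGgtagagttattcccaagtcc
The main donor had 680 reads in Rep B and 93 in Rep A, and the downstream donor had 45 reads in Rep B and 0 in Rep A. Divided by the median ratio of 4.50, 45 reads come to the 10-read minimum of Rep A. This locus itself had 725 reads in Rep B and 93 in Rep A, a higher ratio than the median. By that ratio, 45 reads fall under the minimum.

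AT2TE07745 (Chr2:1671014-1672368, + strand, a CACTA match on the pseudogene AT2G04770) used 1 donor with several acceptors. Its models had 178, 54, 14 and 11 reads in Rep B, against 20 and 14 in Rep A. The acceptor ending at 1671407 had 178 reads in Rep B and 20 in Rep A, and the one ending at 1671494 had 54 in Rep B and 14 in Rep A. A further acceptor, ending at 1671377, had 11 reads in Rep B and 0 in Rep A. All lie behind an AG in the genome, as the windows show, with the exon in capitals.
AT2TE07745 acceptor at Chr2:1671377, Rep B only: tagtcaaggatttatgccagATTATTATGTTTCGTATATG
AT2TE07745 acceptor at Chr2:1671407, both: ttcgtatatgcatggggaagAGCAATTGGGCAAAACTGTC
AT2TE07745 acceptor at Chr2:1671494, both: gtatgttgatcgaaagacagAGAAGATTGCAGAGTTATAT
The order of the 2 acceptors found in both libraries was the same in Rep B and Rep A. The model of 14 reads in Rep B kept this intron in its exon, which no model of Rep A did.

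Other loci with many isoforms held fewer of them in Rep A. AT1TE45380 (Chr1:13839882-13841658, - strand, on the pseudogene AT1G36630) had 208, 167, 46, 34 and 10 reads in Rep B, against 28 and 12 in Rep A. AT4TE15820 (Chr4:3501702-3506699, - strand, on the pseudogene AT4G06566) had 427, 317, 57 and 12 reads in Rep B, against 45, 13 and 10 in Rep A. AT5TE39315 had 311 reads in 3 models in Rep B, against 37 reads in 2 models in Rep A, and AT2TE07145 had 286 reads in 3 models in Rep B, against 59 in 1 model in Rep A. AT1TE45380 and AT4TE15820 belong to 1 sequence group, and their starts lay in nearly the same sequence, with 58 of 59 aligned bases identical. Each window runs from 50 bases before the start to 10 bases into the transcript of the model with most reads in Rep B. Capitals mark the letters TATAAA, the core of many TATA boxes, and the first transcribed base.
AT1TE45380 start, Chr1:13841649-13841708, - strand: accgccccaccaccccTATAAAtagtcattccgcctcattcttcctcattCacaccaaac
AT4TE15820 start, Chr4:3506689-3506748, - strand: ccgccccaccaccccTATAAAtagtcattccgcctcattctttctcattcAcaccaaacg
Starts of Rep A at AT1TE45380 fell on the same base as the most read model of Rep B. At AT4TE15820 the models of Rep A with 45 and 13 reads started within 1 nt of it, and the model with 10 reads started 53 nt downstream.

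**Figure D2:**
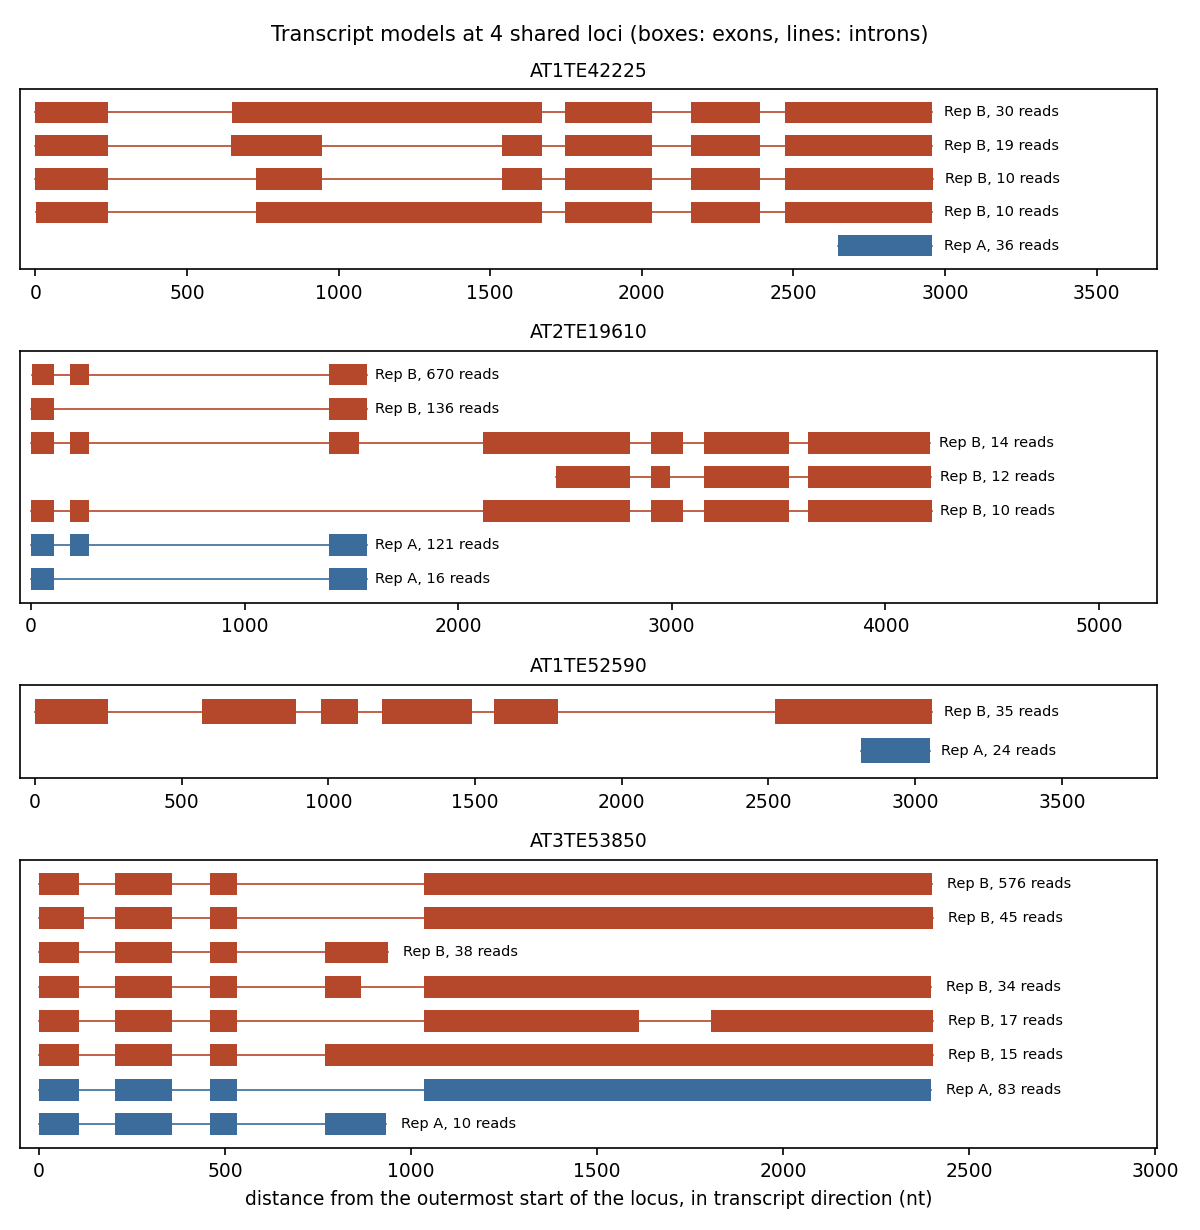
Transcript models at 4 shared loci, drawn to scale from the outermost start of each locus in transcript direction (nt), with Rep B in red, Rep A in blue, boxes for exons, lines for introns and the cluster reads beside each model. Rep A has a single short exon at AT1TE42225 and AT1TE52590, where Rep B has up to 6 exons, and the models of Rep A at AT3TE53850 and AT2TE19610 recur in Rep B.

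Rep B also added most of the introns. It held 491 distinct introns, against 84 in Rep A, and 83 of the 84 recurred in Rep B to the base. Of the 408 introns of Rep B only, 402 (98.5%) were GT-AG, the usual pair of intron ends, 2 were GC-AG and 4 were neither. All 83 shared introns were GT-AG. The introns of Rep B only had a median of 16 reads in Rep B and a median length of 100.5 nt, against 85 reads and 106 nt for the shared ones. Another round 1 library held 113 of the 408 (27.7%) and 66 of the 83 shared introns (79.5%).

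Most added introns extended the catalogue, and few were alternatives at introns that Rep A had. Loci of Rep B alone held 347 of the 408 (85.0%). The other 61 lay at 25 shared loci. Of these, 39 were upstream of every model of Rep A, 5 downstream, 4 inside an exon of Rep A and 3 across an end or intron of Rep A. Only 10 shared a site with an intron of Rep A, 6 with its donor and 4 with its acceptor. Whole intron chains behaved alike: 45 of the 48 spliced models of Rep A (93.8%) had their chain in Rep B, and 47 of the 250 of Rep B (18.8%) had theirs in Rep A.

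**Figure D3:**
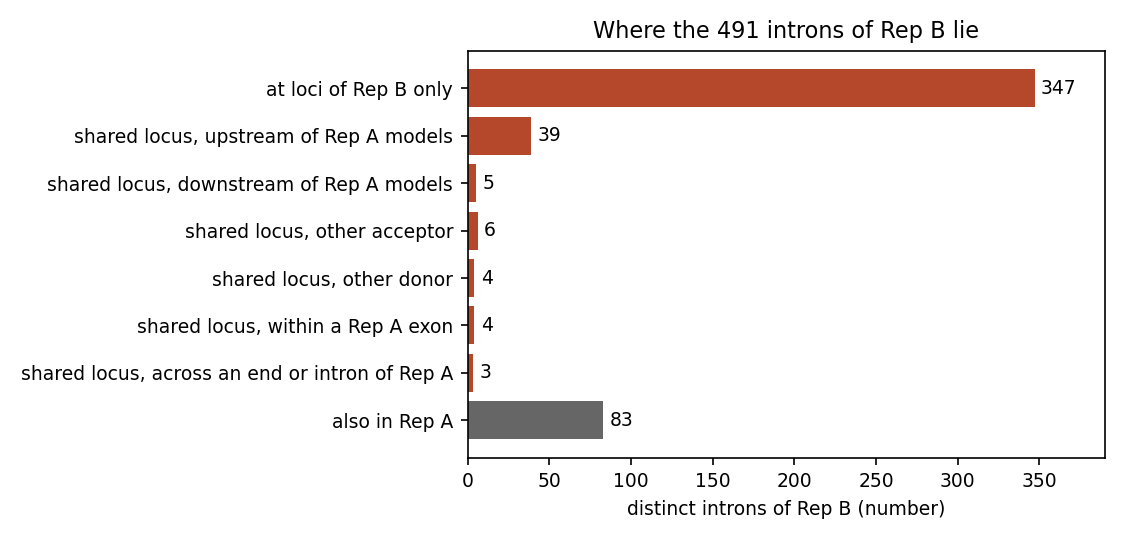
Number of distinct introns of Rep B by where they lie, with the 408 introns not found in Rep A in red and the 83 found in both in grey. Loci of Rep B alone hold 347, and 39 lie upstream of the Rep A models at shared loci.

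The 1 intron of Rep A without an exact partner lay at AT3TE51150 (Chr3:12349040-12349861, + strand), over the exons of QQS (AT3G30720), a small protein-coding gene of recent origin that affects starch content. Rep B ended the last of its 3 introns at 12349564 in a model of 59 reads, and Rep A ended it 3 nt later, at 12349567, in a model of 11 reads. Both acceptors follow an AG, and the windows are shown with the exon in capitals.
AT3TE51150 acceptor of Rep B, Chr3:12349564: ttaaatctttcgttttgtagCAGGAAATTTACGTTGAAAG
AT3TE51150 acceptor of Rep A, Chr3:12349567: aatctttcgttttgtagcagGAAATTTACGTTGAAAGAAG
The acceptor of Rep B also occurred in another round 1 library. The other chains found in Rep A only were at AT1TE65060, with 10 reads, and AT5TE39140, with 13 reads, and their introns occurred in Rep B in longer chains.

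The 4 added introns that were neither GT-AG nor GC-AG did not look alike. At AT3TE51900 (Chr3:12606941-12607128, - strand, 44 reads in Rep B) a word of 28 bases occurs in both windows, so the exact ends cannot be placed. The model ends at 12606934, so only a few of its bases lie beyond this intron. They are the first bases of ATAAATATT, which also directly follows the donor. The windows thus do not show that a stretch is missing, and whether the reads ran straight on was not tested. Capitals mark the bases assigned to exons.
AT3TE51900 left window: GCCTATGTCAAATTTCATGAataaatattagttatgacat
AT3TE51900 right window: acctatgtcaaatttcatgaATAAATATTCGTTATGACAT
At AT4TE16900 (Chr4:3839841-3839936, - strand, 10 reads) the windows share a word of 14 bases. AT4TE15820.2 (Chr4:3507964-3688383, + strand, 29 reads) had ends CT and AG, and AT4TE09810 (Chr4:2071656-2084943, + strand, 22 reads) had GT and TG. Their introns were 180420 and 13288 nt long. The intron of 180420 nt was also modelled at this place in ddm1 pol V. Of the 4 longest introns of Rep B, the one of 15698 nt at AT4TE19910 (11 reads) was GT-AG but had a word of 25 bases in both windows, and the one of 5186 nt at AT2TE20960 (18 reads) was GT-AG. Both follow a short first exon, bases 0 to 49 at AT4TE19910 and 0 to 23 at AT2TE20960. Rep A had none over 4175 nt. How the long introns arose was not tested.

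Transcript starts were mostly the same in both libraries, and where they were not, Rep B usually reached further upstream. The outermost start fell on the same base at 48 of the 80 shared loci (60%) and within 10 nt at 57 (71.2%). It lay over 10 nt upstream in Rep B at 16 loci and over 10 nt downstream at 7. Models with the same intron chain had closer starts, with 35 of 45 on the same base (77.8%) and 41 within 10 nt (91.1%). Only spliced models enter this count, and both must start upstream of the same first intron. Closer starts thus follow in part from this choice.

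At 14 shared loci the start of Rep B lay more than 100 nt upstream. In 12 of them Rep A had a single unspliced exon. In 12 its start fell inside the last exon of a Rep B model, so that Rep A listed only a 3′ part of the Rep B model. Rep B had a spliced model at 12 of the 14 loci, and the exon of an unspliced Rep B model counted as its last. The longest model at these loci had a median of 1763 nt in Rep B and 276 nt in Rep A, and 8 of the 14 ends were within 10 nt of each other and all 14 within 100 nt. The loci held 39 of the 61 introns added at shared loci. Of the 12 shared loci that were spliced in Rep B and unspliced in Rep A, 10 were among them, and 0 loci were spliced in Rep A and unspliced in Rep B.

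These 14 loci had fewer reads in Rep B for their reads in Rep A than the rest. Their median ratio was 1.96, with medians of 33.5 reads in Rep B and 14 in Rep A, against a median ratio of 4.92 at the other 66 shared loci. A model of Rep B started within 10 nt of the start of Rep A at 1 of the 14. Another library of round 1 had a model at 12 of them. It started within 10 nt of the Rep A start at 7 and within 10 nt of a Rep B start at 5. AT4TE10345 counts in both numbers, and AT2TE17985 in neither. Of the 14 loci, 7 belonged to the group led by AT1TE44450, which has 10 shared loci. What led to the shorter models of Rep A was not tested.

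AT1TE42225 (Chr1:12950297-12953256, + strand, a CACTA match on the pseudogene AT1G35300) shows the pattern. Rep B had 4 models of 30, 19, 10 and 10 reads, all with 5 or 6 exons and up to 2265 nt and a frame of 408 codons. Rep A had 1 unspliced model of 36 reads and 310 nt, with a frame of 20 codons. It began 2648 nt further downstream, inside the last exon, and ended at the same base as the most read model of Rep B. Its first intron in Rep B used 1 donor, ending the exon at TCGAG, and 3 acceptors, with 30, 20 and 19 reads. The donor window has 36 of 40 bases identical to that of AT2TE07745, another CACTA locus. Capitals mark exons.
AT1TE42225 donor, intron Chr1:12950539-12950946: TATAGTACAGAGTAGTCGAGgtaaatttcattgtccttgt
AT2TE07745 donor, intron Chr2:1671279-1671407: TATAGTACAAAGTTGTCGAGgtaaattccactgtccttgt
AT1TE42225 acceptor, Chr1:12950941, 19 reads: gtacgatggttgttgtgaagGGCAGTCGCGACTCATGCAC
AT1TE42225 acceptor, Chr1:12950946, 30 reads: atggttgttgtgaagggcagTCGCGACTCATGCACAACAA
AT1TE42225 acceptor, Chr1:12951022, 20 reads: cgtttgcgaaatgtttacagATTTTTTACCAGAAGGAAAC
None of these introns was found in Rep A, and the acceptors at 12950941 and 12950946 are 5 nt apart.

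AT1TE52590 (Chr1:15951216-15954275, - strand, on the pseudogene AT1G42500) had 1 model of 35 reads, 6 exons, 1766 nt and a frame of 451 codons in Rep B, against 1 unspliced model of 24 reads and 234 nt in Rep A, with a frame of 1 codon. AT2TE23705 likewise had 12 reads, 1766 nt and a frame of 341 codons in Rep B, against 11 reads, 201 nt and 28 codons in Rep A. AT1TE44455 had a model of 26 reads and 739 nt and one of 10 reads and 2159 nt in Rep B, against 1 model of 11 reads and 509 nt in Rep A. Its longest frame was 365 codons in Rep B and 42 in Rep A. The largest step was at AT5TE20395 (Chr5:5630284-5635234, + strand, a Copia match on the pseudogene AT5G17125), where Rep B began 3999 nt further upstream. It had 24 reads and a frame of 1404 codons in Rep B, against 12 reads and 106 codons in Rep A. Its 24 reads in Rep B were split over a spliced model of 14 reads near the start and an unspliced model of 10 reads through the whole element. At AT4TE10345 the short unspliced form was in both libraries, with 19 reads in Rep B and 14 in Rep A, beside spliced models of 23 and 11 reads in Rep B only.

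Over all 80 shared loci the longest model had a median of 737 nt in Rep B and 641 nt in Rep A. It was over 10 nt longer in Rep B at 38 loci, within 10 nt at 32 and shorter at 10. The longest open reading frame had a median of 80 codons in Rep B and 55 in Rep A, was longer in Rep B at 24 loci, equal at 55 and shorter at 1.

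The opposite step, a start further downstream in Rep B by over 100 nt, occurred at 3 loci, all with far fewer reads in Rep B. AT1TE54480 had 13 reads and 1518 nt in Rep B, against 81 reads and 2045 nt in Rep A. Its near-identical copy AT1TE54480.2 had 11 reads and 736 nt in Rep B, against 56 reads and 2056 nt in Rep A. AT2TE16940, on the pseudogene AT2G10410 that the annotation lists as SADHU1-1, a Sadhu retroposon, had 10 reads and 246 nt in Rep B, against 98 reads and 918 nt in Rep A. In all, 8 of the 80 shared loci had fewer reads in Rep B than in Rep A. SADHU3-1 at AT3TE63935 had 26 reads in Rep B and 85 in Rep A, and the other 4 had 10 to 14 reads in Rep B and 12 to 29 in Rep A. All 8 but AT5TE22990 had a model in another library of round 1. The log2 ratio of reads ran from -3.29 to 3.58 over the shared loci with an SD of 1.39, and 60 of 80 lay within 2-fold of the median. The ranks of the shared loci in both libraries were moderately alike (Spearman rho 0.49, Pearson r of log2 reads 0.52, over 80 loci of 2 libraries, as a description).

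**Figure D4:**
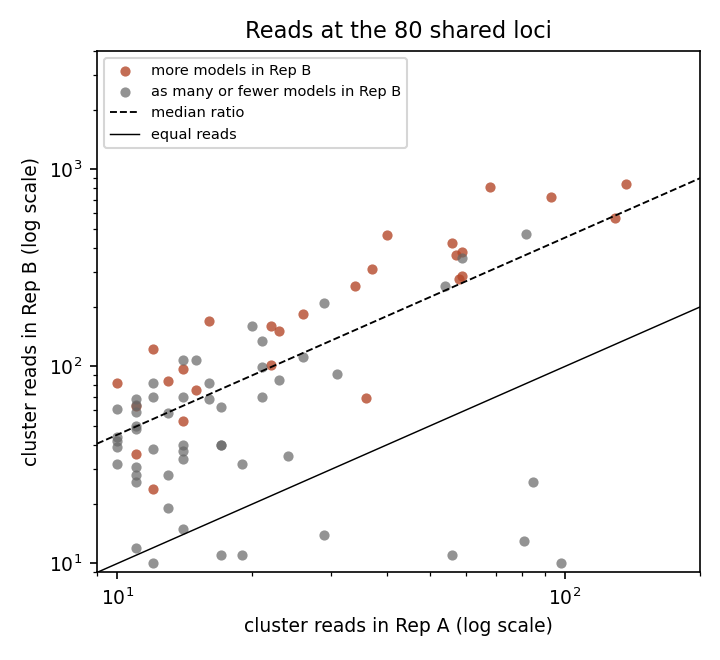
Cluster reads of the 80 shared loci in Rep B (vertical) against Rep A (horizontal), both on log scales, with loci that had more models in Rep B in red and all others in grey. The dashed line is the median ratio of 4.50 and the solid line is equality, and 8 loci lie under the solid line.

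Transcript ends fell on the same base less often than starts. The outermost end fell on the same base at 24 of the 80 shared loci (30%) and within 10 nt at 48 (60%). It lay over 10 nt downstream in Rep B at 28 loci and over 10 nt upstream at 4, with a range of -21 to 2645 nt. At 8 loci it lay more than 100 nt downstream in Rep B, and at 0 more than 100 nt upstream. A library with more models has more chances for an outer start or end. For the most read model of each library, starts were on the same base at 48 loci and within 10 nt at 57, and ends were on the same base at 26 and within 10 nt at 56. Starts of the most read model lay over 100 nt upstream in Rep B at 14 loci and over 100 nt downstream at 3, the same numbers as for the outermost starts. Ends of the most read model lay over 100 nt downstream in Rep B at 0 loci and over 100 nt upstream at 3, the other way from the outermost ends.

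The same measures were taken between other pairs of libraries, by the most read model of a shared locus. Starts on the same base were at 60% of loci for Rep B and Rep A, and at 59.2% (Rep B and ddm1 pol V) to 71.9% (Rep A and ddm1 rdr6) in the other 5 pairs. Starts within 10 nt were at 71.2% for Rep B and Rep A, the lowest of the 6 pairs, and at 73.8% (Rep B and ddm1) to 86.0% (Rep A and ddm1 rdr6) in the others. Ends on the same base were at 32.5% for Rep B and Rep A, and at 25% (Rep A and ddm1 pol V) to 38.6% (Rep A and ddm1 rdr6) in the others. Ends within 10 nt were at 70.0% for Rep B and Rep A, and at 70.3% (Rep A and ddm1 pol V) to 76.2% (Rep B and ddm1) in the others.

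**Figure D5:**
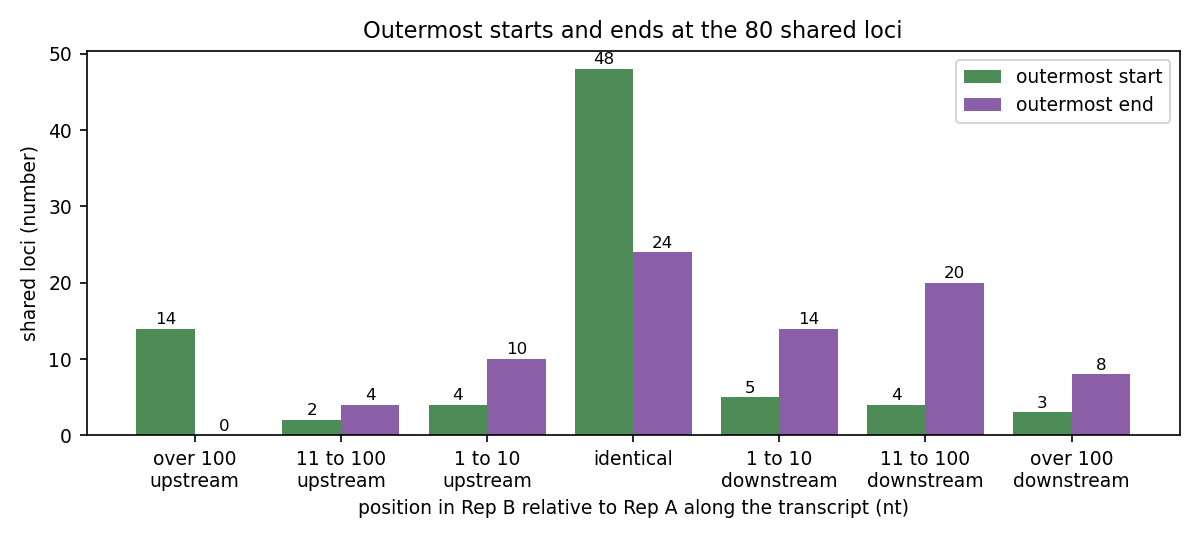
Number of the 80 shared loci by the position of the outermost start (green) and outermost end (purple) in Rep B relative to Rep A, in classes of nt along the transcript. Starts are identical at 48 loci and over 100 nt upstream at 14, and ends are identical at 24 and over 100 nt downstream at 8.

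AT2TE19610 (Chr2:4727560-4731777, + strand, a CACTA match on the pseudogene AT2G11780) had the largest step in its end, 2645 nt. Models ending early had 670 and 136 reads in Rep B, against 121 and 16 in Rep A, and all 4 ended at 4729132. Models that ran on to between 4731771 and 4731777 had 14, 12 and 10 reads in Rep B, and Rep A had 0. The long forms had up to 7 exons and 2145 nt and a frame of 212 codons in Rep B, against 3 exons, 374 nt and 6 codons for the longest in Rep A. The long forms of 14 and 10 reads began at 4727560, as the short ones did within 4 nt, and the one of 12 reads began at 4730019. The common start and both ends are shown. Capitals mark TATAAA and the first transcribed base in the start window, and AATAAA, the canonical polyadenylation hexamer, in the end windows, which hold the last 50 transcribed bases and the 20 after them.
AT2TE19610 start, Chr2:4727510-4727569: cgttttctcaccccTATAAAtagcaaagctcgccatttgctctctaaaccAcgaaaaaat
AT2TE19610 early end, Chr2:4729083-4729152: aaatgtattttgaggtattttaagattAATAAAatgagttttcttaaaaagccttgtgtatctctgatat
AT2TE19610 late end, Chr2:4731722-4731791: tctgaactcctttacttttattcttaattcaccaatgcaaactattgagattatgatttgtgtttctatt
The early end holds AATAAA and the late window does not. In the long form of 14 reads in Rep B the donor at 4729097 lies within the last exon of the short forms, so the early end is spliced out of it.
AT2TE19610 donor inside the short last exon, intron Chr2:4729097-4729677, 14 reads in Rep B: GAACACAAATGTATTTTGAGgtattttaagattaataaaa
The hexamer of the early end lies inside this intron. The long form of 10 reads in Rep B also lacks the early end. Its intron Chr2:4727831-4729677 skips the whole last exon of the short forms.

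AT4TE16900 (Chr4:3839420-3841614, - strand, no annotated gene) ended in steps. Its models had 429, 115, 11 and 10 reads in Rep B and were 519, 652, 764 and 2099 nt long. Those of Rep A had 109 and 20 reads and were 517 and 652 nt long. The most read end of both libraries lay beside a run of 27 A in the genome, and the second beside a run of 11. Oligo(dT) can prime cDNA at such runs, and their part in these ends was not tested.
AT4TE16900 most read end of Rep B, Chr4:3841076-3841145, - strand: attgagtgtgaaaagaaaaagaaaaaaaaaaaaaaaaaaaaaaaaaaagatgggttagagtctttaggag
Over all models, a run of 10 or more A in the last 50 or the next 20 bases was present at 28 of 432 in Rep B (6.48%) and 11 of 91 in Rep A (12.1%). No share over annotated transcripts is given for these runs. In the next 20 bases alone, 60% A or more followed 7 of 295 distinct ends at loci of Rep B alone (2.37%). It followed 0 of 127 of Rep B at shared loci, 2 of 89 of Rep A (2.25%) and 4.61% of annotated protein-coding transcripts. AT4TE20245 and AT5TE39850 also had later outermost ends in Rep B, by 1407 and 278 nt, in models of 11 and 10 reads. Their most read models had 159 and 369 reads in Rep B, against 26 and 59 in Rep A, and ended within 20 nt of those of Rep A. The largest step inward was 21 nt, at AT3TE60280, with 26 reads in Rep B and 11 in Rep A.

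The polyadenylation letters were about as frequent at added as at shared loci, and the TATA letters were less frequent at added ones. AATAAA, searched on the transcript strand only, was in the last 50 bases of 43 of 295 distinct ends at loci of Rep B alone (14.6%) and 19 of 127 of Rep B at shared loci (15.0%), against 16 of 89 of Rep A (18.0%). Of annotated protein-coding transcripts, 9.45% had it. TATAAA, on the same strand, was in the 50 bases before 40 of 273 distinct starts at loci of Rep B alone (14.7%, Clopper-Pearson 95% interval 10.7 to 19.4%) and 25 of 93 of Rep B at shared loci (26.9%, 18.2 to 37.1%), against 20 of 82 of Rep A (24.4%). Of annotated protein-coding transcripts, 10.6% had it. A match of letters is not evidence of a working signal.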

How the data were processed

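Poly(A) RNA of flower buds was turned into cDNA, amplified by PCR and sequenced as long reads on a MinION, per the labels' protocols. The submitters' processing notes name minimap2 and the TAIR10 build, and the source column of the deposited model files names pinfish. The sources used here do not give their versions or settings, or the rule for pairing models with TEs. The deposited values are model positions and the whole number of at least 10 that ends each model's name, read here as cluster reads, which the files do not state. Groups came from sample titles.

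Loci were built from the models of Rep B and Rep A. The main comparisons are counts, shares and medians, with exact Poisson or Clopper-Pearson 95% intervals, and no test. Reads of a locus are the sum over its models. Starts and ends are outermost positions along the strand, given as Rep B minus Rep A. Introns match where both ends agree to the base. Sequences are from the RefSeq assembly TAIR10.1. Of 492 distinct introns, 486 were GT-AG there and 0 models ran past a chromosome end. Sequence groups came from blastn (80% identity over 80% of the shorter model and at least 80 nt) and protein matches from blastx (e-value 1e-05), both BLAST+ 2.17.0. Frames run from ATG to stop.

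Named loci are those with most models or reads, most introns, the largest differences in model number, introns, starts or ends, and unusual or very long introns. AT1TE65060, AT5TE22990, AT5TE39140 and AT5TE42190 fall outside this rule. They, the 14 loci with an upstream start, the sequence groups and the A runs were chosen after their values were seen. Members and lists were chosen with earlier results of these data known. Software was scipy 1.17.1 for intervals, biopython 1.88, pandas 2.3.3, numpy 2.4.6 and matplotlib 3.10.9, under Python 3.11.15. The locus and intron code was tested on simulated models.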

Additional observations from a re-analysis of the deposited data

How the results depend on the processing

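Of 51 recomputed values for 14 results, 37 stayed within the limits set for a like result and 14 moved. Joining loci at 50% shared exon, on either strand, by whole span or over all 6 libraries left 252 to 256 loci in Rep B only, 80 in both and 0 in Rep A only. With models of 20 reads or more, 138 loci were in Rep B only, 29 in both and 5 in Rep A only, 192 introns were in Rep B only and 34 in both, and starts were identical at 75.9% and within 10 nt at 86.2% of shared loci. With models of 2 exons or more, 149 loci were in Rep B only and 41 in both. With introns matched within 10 nt, 0 were in Rep A only. For models with the same intron chain, starts were identical at 77.8% and within 10 nt at 91.1%, and ends within 10 nt at 73.3%. With the read ratio from the 34 loci of 20 reads or more in Rep A, an alternative chosen after seeing the data, the median ratio was 5.27, and 92.9% of loci in Rep B only lay under the scaled minimum, against 89.0%. The cause of these moves was not tested, apart from the smaller number of models that the stricter settings keep. No paired analysis was possible because each side is 1 library. Leaving out a replicate was not possible for the same reason. The 10-read minimum and the unknown library totals limit what the absence of a model in Rep A can show.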
